A study of Mus musculus with 2 samples.

Results

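The 34 genes described here mark macrophages, monocytes and white blood cells in general, and were taken by name from the 37074 gene names on the arrays. They fall into 11 genes typical of tissue macrophages, 9 of monocytes and the wider myeloid lineage, and 14 that most leukocytes share. Of the 34, 31 had at least 1 probe well above background on both arrays, Cx3cr1 and Ms4a6b were well above background on the knockout array alone, and Cd163 on neither. The samples were unfertilised oocytes of C57BL/6 mice that lacked Mul1 (MUL1 -/-, 123 oocytes in 1 pool) and of mice that carried it (MUL1 +/+, 213 oocytes in 1 pool), with no treatment named for either. The Mul1 protein sits in the outer membrane of mitochondria and attaches ubiquitin or SUMO to other proteins. Each pool gave the RNA for 1 Agilent array read in a single colour. The labels do not give the age of the animals, the part of Mul1 that was deleted or the number of animals behind a pool.

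Macrophages live in most tissues, the ovary and the oviduct included, where they clear dying cells and matrix. They take their identity from the transcription factor PU.1, encoded by Spi1, and depend on the growth factor receptor encoded by Csf1r. Other white cells share with them a set of surface proteins, such as CD45 and the beta2 integrin, and a set of actin regulators and signalling adaptors that other cell types replace with related proteins.

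With 1 array per genotype no difference has a replicate check and no test was made. Values are processed signals in arbitrary units, and a difference is the log2 value of the knockout array less that of the wild-type array, each taken relative to its own 75th percentile of probes. A gene is called apart at 2-fold or more, a difference of 1 on that scale. The scanner's own error model gave the difference at a single probe of these genes an error of 0.20 to 0.42, with a median of 0.21. Spots of the same probe agreed more closely, with a median SD of 0.04 and a largest SD of 0.20 over 296 probes printed several times. Both errors leave out differences between pools. Mul1 itself, the deleted gene, read 1074 on the knockout array and 3353 on the wild-type array at the probe for NM_026689 (-1.61), and 23.1 on the knockout array against 19.3 on wild type at the other probe (0.29). The oocyte genes Gdf9 and Zp3 were well above background on both arrays, at -0.11 and 0.41. Because RNA of a whole pool was measured, more cells of a type and more RNA per cell cannot be told apart.

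The macrophage and leukocyte genes were mostly higher on the knockout array. They were chosen with earlier results of these data known, so the shares below describe the list and are no test of it. Of the 31 measured, 30 lay above 0, against 54.8% of all 22921 genes measured. At 2-fold or more, 18 members were higher (58.1%), against 2.92% of all genes and 3.17% of protein-coding genes, and 5 members exceeded 4-fold, against 0.332%. No member was lower by 2-fold, against 1.37% of all genes. The members had a median difference of 1.23, with the middle of the list running from 0.65 to 1.92, against a median of 0.03 over all genes. With Cx3cr1 and Ms4a6b set at their lower bounds the median over 33 genes was 1.42. Both entered through their signal on the knockout array, and the median over all genes was not recomputed in that way. Of all genes apart, 68.2% were higher on the knockout array, or 81.7% with the scale taken from the spike-in controls. That scale gave a median of 0.16 for all genes and of 1.36 for the members.

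Dim genes were called apart more often than bright ones, so the members were also set beside genes of like signal. With all genes ranked by signal and divided into 5 bins, the dimmest bin held 2 members, 1 of them higher by 2-fold or more, against 5.71% of its genes. The next bin held 7 members, 3 of them higher, against 5.28%. The middle bin held 15 members, 12 of them higher, against 2.23%. The next held 3 members, 1 of them higher, against 0.96%, and the brightest held 4, 1 of them higher, against 0.436%. Most of the members called apart, 12 of 18, thus had signals in the middle of the range.

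**Figure D1:**
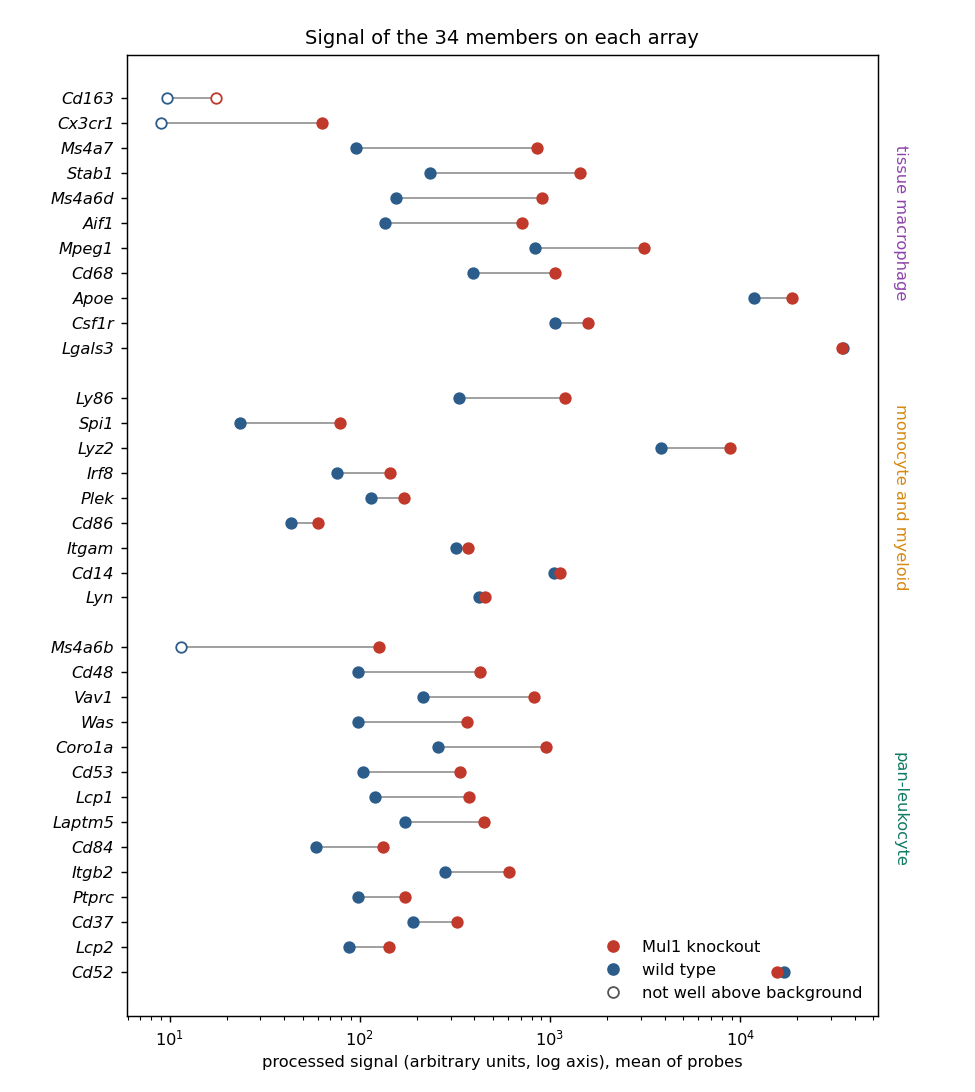
Processed signal of each of the 34 genes on the knockout array (red) and the wild-type array (blue), on a log axis, as the mean of its probes (for genes not measured on both arrays, the probe with the highest knockout signal); open circles are not well above background. Red lies to the right of blue for all but Lgals3 and Cd52, and the gap is widest in the tissue macrophage and pan-leukocyte groups.

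The tissue macrophage genes had the highest median of the 3 groups, except when dim probes were not filtered. Of 9 measured, 6 were at least 2-fold higher, 4 of them at least 4-fold, with a median of 1.92. Ms4a7, a 4-pass membrane protein gene of macrophages, had signals of 532 and 1371 at its 2 probes on the knockout array, against 52.4 and 175 on wild type. The differences were 3.38 and 3.0, and the gene as a whole was 9.11-fold higher, above 99.99% of all genes measured. Ms4a6d, of the same family, read 911 on the knockout array and 155 on the wild-type array (2.59). Stab1, which encodes the scavenger receptor stabilin-1, read 1444 on the knockout array and 233 on the wild-type array (2.66). Aif1 encodes IBA1, the actin-binding protein that pathologists stain to find macrophages, and its signal was 713 on the knockout array and 136 on the wild-type array, a 5.36-fold difference. Mpeg1, the pore-forming protein perforin-2 of phagosomes, read 3104 on the knockout array and 838 on the wild-type array at its main probe (1.92), and its second probe was well above background on the knockout array alone, at least 2.01-fold higher there. Cd68, the lysosomal glycoprotein macrosialin, was the best covered of these genes. Its 3 probes gave 1785, 6613 and 100.2 on the knockout array and 652, 2389 and 39.4 on the wild-type array, and their differences, from 1.38 at the dimmest probe to 1.5 at the brightest, lay within the scanner error of each other.

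The remaining tissue macrophage genes were less clear or did not differ by 2-fold. Csf1r, the receptor for the macrophage growth factors CSF1 and IL-34, had probes that disagreed. Its downstream probe read 3924 on the knockout array and 1760 on the wild-type array (1.19), while the probe 12064 bases upstream, for the same transcript, read 639 on the knockout array and 645 on wild type (0.02). The mean of 0.60 therefore stands for neither probe. Apoe, the lipid carrier apolipoprotein E, which many cell types make, was 1.61-fold higher, with 35801 and 9798 on the knockout array and 22437 and 6289 on the wild-type array at its 2 probes (0.71 and 0.67). Lgals3, which encodes galectin-3 of macrophages and of many epithelia, did not separate the arrays. Its probe printed at 10 spots averaged 23642 on the knockout array and 22424 on the wild-type array, a difference of 0.11 ± 0.03 (SD over 10 spots of 1 array pair), and its other probe differed by -0.08. Cx3cr1, the fractalkine receptor of monocytes and resident macrophages, read 62.8 on the knockout array and 8.99 on the wild-type array at its brighter probe, which was not well above background on wild type, and was at least 5.0-fold higher. Cd163, the scavenger receptor for haemoglobin bound to haptoglobin, stayed below the background threshold on both arrays, at 17.5 on the knockout array and 9.69 on the wild-type array at its stronger probe. Of all gene names, 2.22% were well above background on the knockout array alone and 3.43% on the wild-type array alone.

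The monocyte and myeloid genes differed less as a list, with a median of 0.60 and 3 of 9 at least 2-fold higher, although all 9 lay above 0. Ly86, the secreted partner of a Toll-like receptor relative on myeloid and B cells, read 1201 on the knockout array and 333 on the wild-type array (1.88). Spi1, the PU.1 gene, was dim but 3.43-fold higher at its single probe, with 78.2 on the knockout array and 23.3 on the wild-type array. Under normexp background correction, which here also added an offset of 50 units to every signal, Spi1 came to 0.75 and was no longer 2-fold apart. Such an offset by itself makes differences of dim genes smaller. Lyz2, the lysozyme gene of macrophages and neutrophils, had 1692 and 45836 on the knockout array and 692 and 21388 on the wild-type array at its 2 probes (1.32 and 1.13). Lyz1, a near copy of Lyz2, differed by 0.60, and how far probes of these genes bind each other's transcripts was not tested. Irf8, a transcription factor gene of the monocyte and dendritic lineages, had a RefSeq probe at 1.46, with 622 on the knockout array and 232 on the wild-type array, and an Ensembl probe at 0.46, so its mean of 0.96 lay just under 2-fold. Plek, whose product pleckstrin is a protein kinase C substrate of platelets and leukocytes, had probes at 0.63 and 0.56. Cd86, a co-stimulatory ligand for T cells, had probes from -0.01 to 0.82, all under 100 units on both arrays. The 3 genes nearest to 0 were Itgam, the CD11b chain of the complement receptor, at 0.24, Cd14, the lipopolysaccharide co-receptor, at 0.15, and Lyn, a Src-family kinase gene of myeloid and B cells, at 0.13. The probes of each of these lay on both sides of 0. For Itgam the probe above 0 was dim, with 23.6 on the knockout array and 15.7 on the wild-type array (0.62). Its bright probe read 5810 on the knockout array and 6554 on the wild-type array (-0.14). With a stricter filter on dim probes Itgam came to -0.14 and Cd86 to -0.01, so not all 9 stayed above 0.

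Most pan-leukocyte genes were higher on the knockout array. Of 13 measured, 12 lay above 0 and 9 were at least 2-fold higher, with a median of 1.42. Ms4a6b, an MS4A gene of T cells and macrophages, read 126 on the knockout array and 11.5 on the wild-type array, where it was not well above background, and was at least 10.0-fold higher. Among surface proteins, the SLAM-family gene Cd48 read 361 and 511 on the knockout array at its 2 probes, against 80.1 and 120 on the wild-type array, differences of 2.20 and 2.12. Cd84, another SLAM-family receptor gene, was 2.29-fold higher on average but its probes spread from 0.43 to 1.80, and it was under 2-fold with its brightest probe alone or with a stricter filter on dim probes (0.43 in both) and with normexp (0.61). The tetraspanin gene Cd53 was 3.29-fold higher at 336 on the knockout array and 104 on the wild-type array. Itgb2, the beta chain that pairs with CD11b, was 2.23-fold higher at 608 on the knockout array and 279 on the wild-type array, and Laptm5, a lysosomal membrane protein of blood cells, 2.68-fold higher at 450 on the knockout array and 172 on wild type. Cd52, a small surface glycoprotein of lymphocytes that epithelia of the male tract also make, read 15620 on the knockout array and 16973 on the wild-type array (-0.09), or 0.05 on the spike-in scale.

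The other pan-leukocyte genes encode actin regulators and signalling proteins inside the cell. Vav1, a guanine nucleotide exchange factor downstream of antigen and integrin receptors, read 826 on the knockout array and 216 on the wild-type array (1.97). Was, the Wiskott-Aldrich syndrome protein that drives actin branching, read 365 on the knockout array and 98.3 on the wild-type array (1.92). Coro1a, the leukocyte coronin, read 958 on the knockout array and 259 on the wild-type array (1.92). These 3 single-probe genes lay within 0.05 of each other, less than the scanner error of any 1 of them. Lcp1, the actin-bundling L-plastin, had RefSeq probes at 1.89, 1.71 and 1.38. Lcp2, the adaptor SLP-76, had smaller differences of 0.97 and 0.51 and was under 2-fold as a gene (1.67-fold).

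Probes of the same gene did not always tell the same story. Of 18 members with several probes in use, 11 had all of them on the same side of 0 and 7 did not. The 48 RefSeq probes in use had a median of 1.37 with 30 at least 2-fold higher, and the 8 Ensembl probes in use a median of 0.64 with 3 at least 2-fold higher. A further 7 Ensembl probes were well above background on neither array. The gene that encodes CD45, Ptprc, is one example, with RefSeq probes at 1.45 (635 on the knockout array, 238 on wild type) and 1.29 (43.3 on the knockout array, 18.1 on wild type). Its Ensembl probes lay at 1.03 (59.0 on the knockout array, 29.6 on wild type) and -0.41 (536 on the knockout array, 728 on wild type). Cd37, a tetraspanin gene of B cells and other leukocytes, had RefSeq probes at 1.15 and 1.52 and an Ensembl probe at -0.29 (836 on the knockout array, 1043 on wild type). As genes, over all their probes, Ptprc differed by 0.84 and Cd37 by 0.79, both under 2-fold. With RefSeq probes alone, an alternative added after the values had been seen, Ptprc came to 1.37, Cd37 to 1.34 and Irf8 to 1.46, and 21 members were at least 2-fold higher. Position along the gene was compared as well. In 15 genes with several RefSeq probes, the most downstream probe had the higher difference in 5 and the lower in 10. The gaps, downstream minus upstream, ran from -0.95 for Cd84 to 1.17 for Csf1r. Those of Cd68 (0.02), Apoe (-0.03), Plek (0.07), Cd48 (-0.09), Ptprc (0.15) and Lgals3 (-0.19) were smaller than the scanner error of a single probe. The same count over all genes is not given here.

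**Figure D2:**
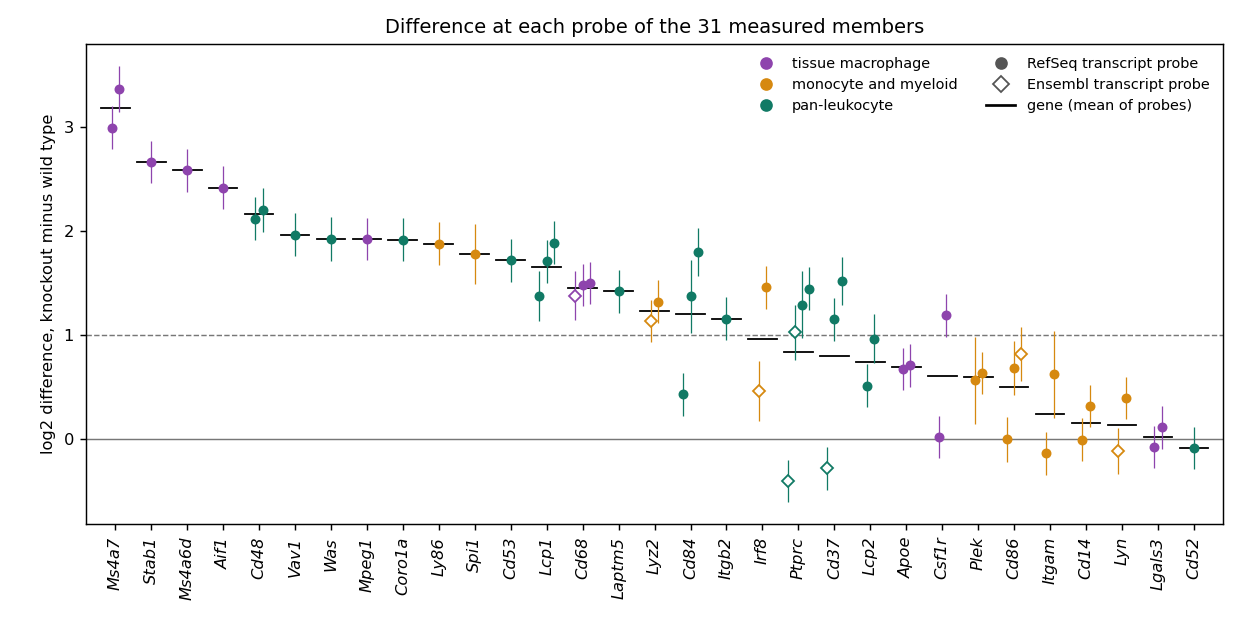
Log2 difference, knockout minus wild type, at each probe well above background on both arrays, for the 31 measured genes ordered by their mean (black bars); error bars are the scanner's error for the difference, and the dashed line marks 2-fold. Ptprc, Cd37, Csf1r and Cd84 have probes that lie more than their error bars apart, while the probes of Cd48, Cd68 and Apoe overlap.

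The probes printed next show what was hybridised for genes the results turn on. They were picked after the values had been seen, as probes recognised as coding sequence. They are 60 bases long, read 5′ to 3′ as on the array, and each holds at least 1 reading frame without a stop codon. Those of Spi1, Lcp1, Lcp2 and Lgals3 cover more than their own length in the genome (13788, 2174, 944 and 817 bases), so they bridge an exon junction and match spliced RNA. Positions are on mouse build mm9.
Spi1, chr2:90939665-90953452, plus strand, difference 1.78: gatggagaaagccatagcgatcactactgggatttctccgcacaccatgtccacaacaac
Cd48, chr1:173629721-173629780, plus strand, difference 2.20: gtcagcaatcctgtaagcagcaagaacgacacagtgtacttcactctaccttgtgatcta
Lyz2, chr10:116719175-116719234, minus strand, difference 1.32: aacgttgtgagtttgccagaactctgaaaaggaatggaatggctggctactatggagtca
Ptprc, chr1:140010285-140010344, minus strand, difference 1.29: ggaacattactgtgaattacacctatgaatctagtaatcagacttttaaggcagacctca
Lcp1, chr14:75626883-75629056, plus strand, difference 1.38: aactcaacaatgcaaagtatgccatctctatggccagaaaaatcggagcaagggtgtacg
Lcp2, chr11:33989677-33990620, plus strand, difference 0.97: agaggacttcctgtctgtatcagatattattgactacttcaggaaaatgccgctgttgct
Lgals3, chr14:48004398-48005214, plus strand, difference 0.11: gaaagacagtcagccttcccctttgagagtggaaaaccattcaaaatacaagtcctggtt
Among the printed probes, those that bridge a junction gave differences from 0.11 for Lgals3 to 1.78 for Spi1.

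Many members have relatives in the same gene family, and the median of those listed lay near 0. A list of 34 such paralogs of 19 members, drawn up after the members' values had been seen, had a median of 0.04. Their differences ran from -0.63 to 0.69. None was at least 2-fold apart in either direction, where 2.92% of all genes were higher and 1.37% lower. The paralogs were also brighter, with a median wild-type signal of 1843 against 191 for the members. Bright genes were called apart less often, and the comparison was not matched for signal. Beside Was at 1.92, the widely expressed Wasl read -0.23. Beside Vav1 at 1.97, Vav2 read 0.01 and Vav3 0.69. Coro1b and Coro1c read 0.32 and -0.44 beside Coro1a, and the plastin genes Pls3 and Pls1 read 0.44 and 0.21 beside Lcp1 at 1.66. The integrin chain gene Itgb1 read -0.26 beside Itgb2 at 1.16, and the lysosomal genes Laptm4a and Laptm4b read 0.12 and -0.03 beside Laptm5 at 1.42. Stab2 read 0.50 beside Stab1. In 16 of the 19 cases the member lay above every paralog listed for it, the exceptions being Lyn, Csf1r and Lgals3. Of the 19 members, 11 were themselves at least 2-fold higher.

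**Figure D3:**
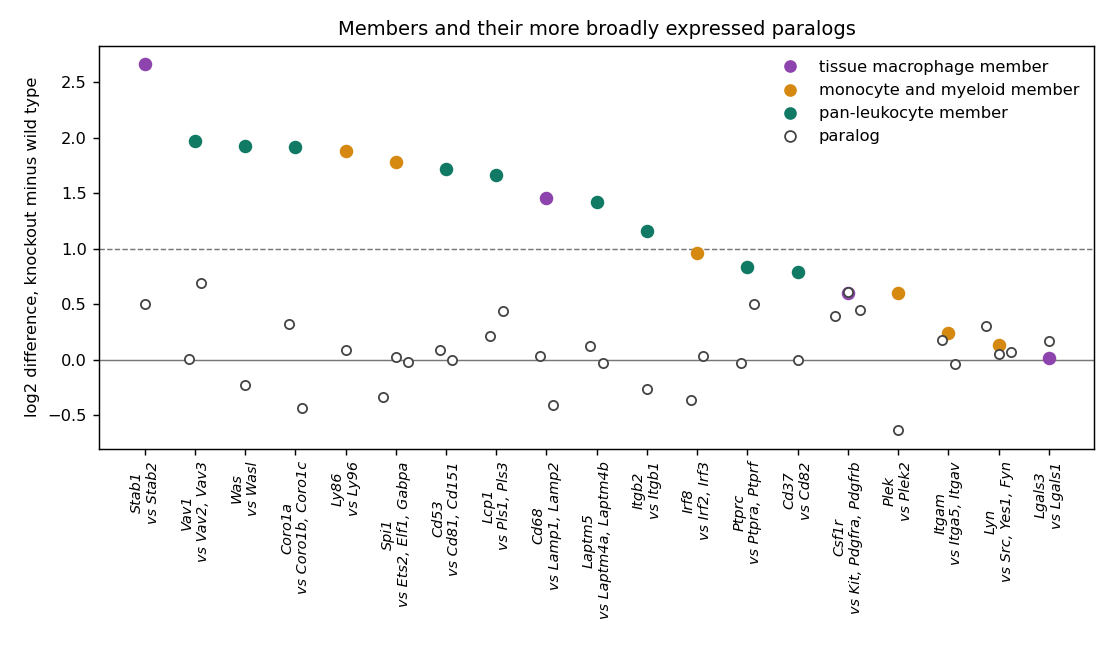
Log2 difference, knockout minus wild type, of 19 members (filled, coloured by group) and of the paralogs listed under each (open circles); the dashed line marks 2-fold. The open circles stay between -0.63 and 0.69, while 11 members lie above 1.

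Other genes of the macrophage and its signalling pathways, none of them members, were counted in the same way. These lists too were chosen with earlier results of the data known, so they are no independent check. Of 26 measured genes for other macrophage surface proteins, 16 were at least 2-fold higher and none at least 2-fold lower, with a median of 1.31. The high-affinity IgG receptor gene Fcgr1 was highest at 3.10, with 538 on the knockout array and 64.0 on the wild-type array, followed by the sialic acid receptor gene Siglec1 at 2.81 and Gpnmb at 2.65. The lowest were the scavenger receptor gene Marco at -0.17 and the tetraspanin genes Cd9 at -0.03 and Cd63 at 0.00. Vsig4, a complement receptor of resident macrophages, was well above background on the knockout array alone, at least 3.73-fold higher, and the microglial genes P2ry12 and Sall1 on neither array. Of 44 genes for myeloid receptor signalling and transcription, 17 were at least 2-fold higher and none at least 2-fold lower, with a median of 0.60. The highest were Arhgap30 at 2.21, Fermt3, which activates leukocyte integrins, at 2.05, and the adaptor gene Tyrobp at 2.02. Among the lowest were the transcription factor gene Runx1 at -0.43 and Sh3bp2 at -0.41.

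Markers of other blood cells moved in part with the members. Of 12 measured neutrophil markers 5 were at least 2-fold higher, with a median of 0.82, and their summed signal was 12373 on the knockout array and 4512 on the wild-type array. S100a9 (3.27), S100a8 (3.05) and the gelatinase gene Mmp9 (2.99) were highest, the granule genes Mpo (-0.35), Mmp8 (0.01) and Elane (0.06) lowest, and the defining genes Ly6g and Ngp were well above background on neither array. Retnlg was well above background on the knockout array alone, at least 6.48-fold higher. Lymphocyte markers were 4 of 19 at least 2-fold higher with a median of 0.31, and summed to 4221 on the knockout array and 2534 on the wild-type array. The B cell gene Cd79b (1.93) and the T and NK cell gene Cd2 (1.28) were among the highest, and Cd3g, Cd8a, Ncr1 and Nkg7 were well above background on neither array. Dendritic and mast cell markers had a median of 0.01 over 9 measured, none at least 2-fold apart, where 2.92% of all genes were higher and 1.37% lower. They summed to 12467 on the knockout array and 15297 on the wild-type array. Most of both sums was Siglech, with 11128 on the knockout array and 13689 on the wild-type array. Itgax was highest at 0.65 and Tpsb2 lowest at -0.71, and Xcr1, Clec9a, Tpsab1, Ms4a2 and Fcer1a were well above background on neither array. Among 4 platelet markers Pf4, a chemokine gene that macrophages also express, was at least 2-fold higher (2.30), and the other three lay between -0.04 and 0.77. The platelet genes Gp5 and Treml1 passed the background threshold only on the wild-type array, and Gp1ba, Gp6 and Gp9 on neither. The part of these cell types in the members' differences was not tested.

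The lists for cells of the ovary and oviduct had medians below those of the tissue macrophage and pan-leukocyte members. The monocyte and myeloid members, with a median of 0.60, lay below the oviduct epithelial list. Oocyte markers had a median of 0.19 over 13 measured, summing to 108282 on the knockout array and 116459 on the wild-type array. Most of both sums was Gdf9 (61515 on the knockout array, 68126 on wild type) and Oosp1 (35398 on the knockout array, 39329 on wild type). Of the 13 oocyte markers, 9 lay above 0 and 4 below. Cumulus and granulosa markers had a median of 0.32, with 1 of 13 at least 2-fold higher (Has2 at 1.16), and summed to 183628 on the knockout array and 168518 on the wild-type array. Endothelial and stromal markers had a median of 0.17, with 1 of 10 at least 2-fold higher (Kdr at 1.13). Oviduct epithelial markers had a median of 0.76, with 2 of 8 at least 2-fold higher (Ovgp1 at 1.54 and Epcam at 1.09). They summed to 121460 on the knockout array and 78159 on the wild-type array. The gap between these sums came from Ovgp1 alone, with 69104 on the knockout array and 24266 on the wild-type array. Their part in the members' differences was not tested either.

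**Figure D4:**
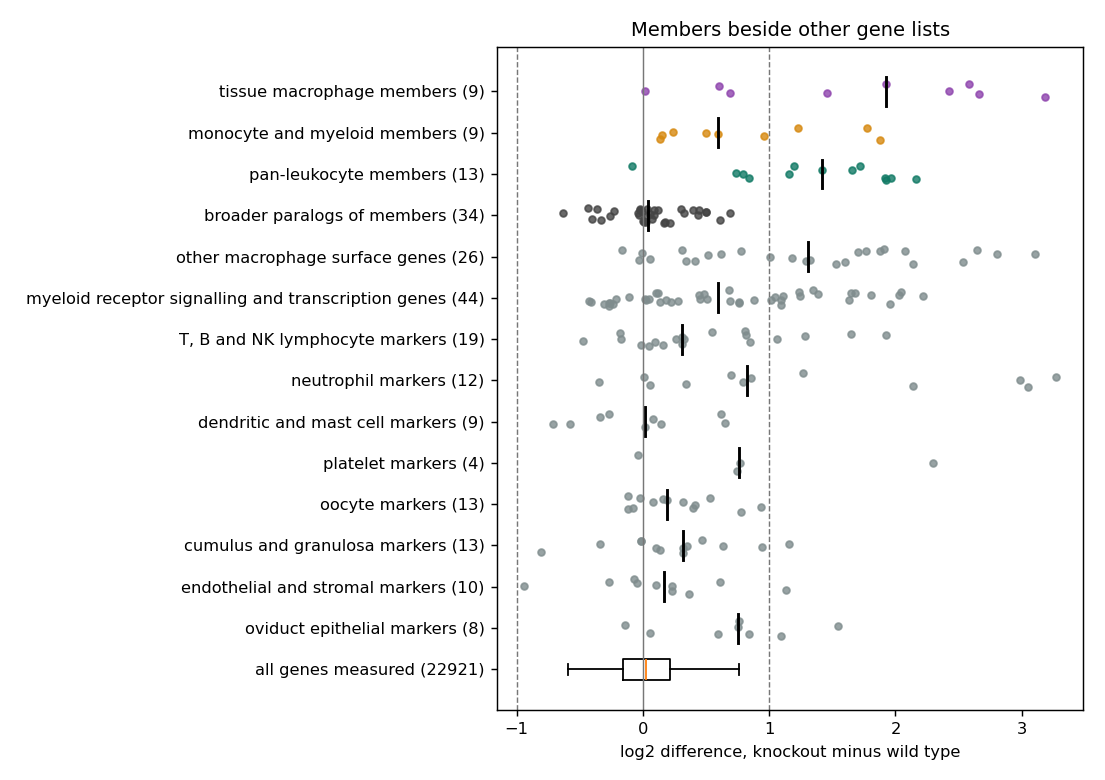
Log2 difference, knockout minus wild type, of each measured gene in the 3 member groups, the paralogs and the other lists, with the number measured in brackets; black bars are medians, dashed lines mark 2-fold, and the box for all genes spans the quartiles with whiskers from the 5th to the 95th percentile. Tissue macrophage, pan-leukocyte and other macrophage surface genes have medians above 1, and the dendritic and mast cell list and the paralogs have medians near 0.

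Set against each other, the tissue macrophage members had a median 0.50 above that of the pan-leukocyte members, and the monocyte and myeloid members had the lowest median. The order of the first pair was not stable. Without a filter on dim probes, when Cx3cr1, Cd163 and Ms4a6b enter with signals below the background threshold, the tissue macrophage median was 1.45 and lay below the pan-leukocyte median (a distance of -0.07). With those seen on the knockout array alone at their lower bounds the medians were 2.12 for tissue macrophage, 1.54 for pan-leukocyte and 0.60 for monocyte and myeloid members. The added genes entered through their signal on the knockout array, while Cd163 stayed out, so these medians give no support to the order. In each group the differences ran over a range wider than the distance between the medians, from 0.02 to 3.19 for tissue macrophage, from -0.09 to 2.16 for pan-leukocyte and from 0.13 to 1.88 for monocyte and myeloid members.

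The sequence around the start site was available from RefSeq (GRCm38.p6) for 26 of the 34 members, as windows of 300 bases, 250 before the start and 50 after it. PU.1 binds DNA at a purine-rich element known as the PU box, GAGGAA, and this was searched on both strands. In all, 9 motifs were searched, some chosen after others had been counted, and the counts of all of them are given. GAGGAA was present in 15 of 26 members (57.7%), in 12 of 29 paralogs (41.4%) and in 31.3% of all 27025 genes with a window. In 11 of the 15 members it lay in the 250 bases upstream, and in the other 4, Ms4a7, Lcp2, Was and Cd84, it lay past the start or across it. Its longer form GAGGAAGT, which contains it, was present in 3 of 26 members (11.5%), 3 of 29 paralogs (10.3%) and 3.69% of all genes. The element TATAAA was present in 4 members (15.4%), 4 paralogs (13.8%) and 15.7% of all genes. The GC box GGGCGG was present in 8 members (30.8%), 23 paralogs (79.3%) and 38.2% of all genes. Further forms that overlap the PU box gave mixed counts. GAGGAAG was present in 5 members (19.2%), 7 paralogs (24.1%) and 15.4% of all genes, and GGAAGT in 12 members (46.2%), 12 paralogs (41.4%) and 26.5% of all genes. AGAGGAAGT was present in 2 members (7.69%), 1 paralog (3.45%) and 1.18% of all genes, and AAAGAGGAA in 4 members (15.4%), 1 paralog (3.45%) and 1.58% of all genes. The cAMP response element TGACGTCA was present in 0 members, 0 paralogs and 2.03% of all genes. The 250 bases upstream are shown for 3 of those 11 members, the ones with the largest differences among the 11, and GAGGAA, or its reverse complement, is in capitals.
Stab1, chr14:31168642-31168891, minus strand: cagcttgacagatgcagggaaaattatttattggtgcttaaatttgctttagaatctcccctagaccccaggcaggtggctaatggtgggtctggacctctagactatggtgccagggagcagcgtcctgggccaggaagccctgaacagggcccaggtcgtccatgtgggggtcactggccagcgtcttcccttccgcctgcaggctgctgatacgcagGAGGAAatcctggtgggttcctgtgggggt
Aif1, chr17:35176053-35176302, minus strand: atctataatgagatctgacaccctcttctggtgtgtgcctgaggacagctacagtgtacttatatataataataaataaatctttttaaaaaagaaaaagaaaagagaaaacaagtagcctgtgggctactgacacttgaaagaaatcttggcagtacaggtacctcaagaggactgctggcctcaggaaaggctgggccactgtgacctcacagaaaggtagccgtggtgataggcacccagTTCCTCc
Vav1, chr17:57278850-57279099, plus strand: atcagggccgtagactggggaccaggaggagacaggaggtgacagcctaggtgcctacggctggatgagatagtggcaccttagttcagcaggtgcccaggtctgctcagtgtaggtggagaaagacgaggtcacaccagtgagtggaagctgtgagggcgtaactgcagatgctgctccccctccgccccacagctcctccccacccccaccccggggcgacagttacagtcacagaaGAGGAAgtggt
The boxes begin 30, 7 and 11 bases before the start, and that of Vav1 continues into the longer form. These matches describe the sequence and carry no measurement of binding.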

How the data were processed

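RNA of 1 oocyte pool per genotype was amplified with a kit for small inputs and carried the dye Cy3, per the labels' protocols. The deposited scanner tables hold spot intensity, background-subtracted and detrended within each array by Agilent Feature Extraction 10.7.1.1 per the file headers, while the submitters' processing notes name 9.5.1.1. The deposited series table also holds intensity. Its sorted columns differed by at most 0.0243%, so its values are quantile normalised between arrays.

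From these, log2 processed signals of unflagged spots were averaged per probe (56600 of 56605 probes) and set to the array's 75th percentile. A gene, named as in the files, is the mean of its probes well above background on both arrays. A lower bound sets the bright signal against the lowest signal well above background on the dim array (15.8 on the knockout array, 12.9 on the wild-type array) or the dim probe's own, if higher. All 34 members are reported, with extremes of each other list, some of which are not reported here. Members and lists were chosen with earlier results of these data known, and the paralogs, gene families, motifs and printed probes after values had been seen here. The steps that make calls were also run on simulated data built from the wild-type signals. Alternatives were other scalings, filters, probe rules and names, normexp in limma 3.58.1 (offset 50) and the deposited table. No test between the genotypes was made.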

Additional observations from a re-analysis of the deposited data

How the results depend on the processing

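Across 11 alternatives and 1 added after the values were seen, the number of members at least 2-fold higher ran from 16 to 21 and none was at least 2-fold lower in any. Of the 18 members called, 16 were at least 2-fold higher in every setting, the others being Cd84 and Spi1. These settings reprocess the same pair of arrays and are no independent check. Normexp added an offset of 50 units to every signal, which by itself makes differences of dim genes smaller. With normexp the median was 1.02 for all members, 0.39 for monocyte and myeloid and 1.16 for pan-leukocyte members. Without a filter on dim probes it was 1.45 for tissue macrophage and 0.91 for monocyte and myeloid members, and the tissue macrophage minus pan-leukocyte median turned to -0.065, against 0.50 as reported, since 3 dim genes enter. With the stricter filter the monocyte and myeloid median was 0.39. Of 371 values of single members under alternatives, 45 moved by more than 0.20, 21 of them under normexp and 10 with the brightest probe, which put Ptprc at -0.41, Cd37 at -0.29 and Itgam at -0.14. All genes at least 2-fold higher numbered 670 (313 lower), 212 (116) with normexp, 2773 (1330) without a dim filter, 339 (194) with the stricter one, 904 (202) on spike-in controls and 558 (148) with RefSeq probes alone. No paired analysis was possible because each genotype has 1 array, and leaving out a replicate was likewise not possible. Dim genes such as Spi1 and Cd86 lie near the lowest detectable signal.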

Other observations

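The MS4A genes, which form a cluster on chromosome 19, differed among themselves. This list and those of the 2 families after it were drawn up after the members' values had been seen. Of 9 measured, 4 were at least 2-fold higher on the knockout array, against 2.92% of all genes. Besides Ms4a7 and Ms4a6d these were Ms4a4a at 2.47, with 204 on the knockout array and 37.8 on the wild-type array, and Ms4a6c at 1.79. Ms4a4c, with 76154 on the knockout array and 72742 on the wild-type array, differed by 0.10, and Ms4a1, the B cell gene for CD20, by 0.27. Ms4a4b was well above background on the knockout array alone, at least 3.15-fold higher, as were Ms4a14 (2.85-fold) and Ms4a10 (1.66-fold), and 6 further MS4A genes were on neither array.

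In the SLAM family of leukocyte adhesion receptors, 5 of 7 measured genes were at least 2-fold higher, against 2.92% of all genes, with a median of 1.28. Among the 5 were the members Cd48 and Cd84 and the lymphocyte marker Cd2, all counted above. Slamf9 read 67.5 on the knockout array and 16.6 on the wild-type array (2.05), Ly9 read 1.98, and Cd244, a receptor of NK and T cells, read -0.11. Slamf9 and Ly9 lay in the dimmest of the 5 signal bins, where 5.71% of genes were at least 2-fold higher. Cd2 and Cd84 lay in the next bin, where 5.28% were, and Cd48 in the middle bin, where 2.23% were. Slamf6, Slamf7 and Slamf8 were well above background on the knockout array alone, at least 2.54-fold, 3.80-fold and 2.97-fold higher.

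The tetraspanin genes named Tspan, relatives of the members Cd53 and Cd37, did not follow them. Of 20 such genes 19 were measured, with a median of 0.06. None was at least 2-fold higher on the knockout array, against 2.92% of all genes. Tspan18, with 103 on the knockout array and 222 on the wild-type array (-1.07), was at least 2-fold lower, against 1.37%. The highest was Tspan13, with 797 on the knockout array and 462 on the wild-type array (0.82), and Tspan32, a leukocyte member of the family, read 0.30.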
